A study of Mus musculus with 15 samples.

Results

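Enzymes and complex subunits that write, erase or read out histone marks, or move nucleosomes, were followed across induced pluripotent stem (iPS) cells, embryonic stem (ES) cells and embryonic fibroblasts. The list held 35 mouse genes in 6 roles, chosen as genes of histone methylation, histone deacetylation and nucleosome remodeling. Of these, 34 were measured among the 18193 genes that had a probe set of their own, each through its brightest probe set by mean over all arrays, and Suv39h1 was not analysed here. The groups, with 3 arrays each, were the iPS lines IP14D-1, IP20D-3 and IP14D-101, the ES line CL11, and mouse embryonic fibroblasts (MEF). All groups carried the B6D2F1 background except IP14D-101, which carried C57x129S2, so that line and strain background cannot be told apart for IP14D-101. The pluripotent lines had been cultured with LIF on feeder fibroblasts arrested by mitomycin C, in medium with 15% FBS or 20% KOSR, and the medium of each line is not given in the labels. The only ES line was CL11, so every difference between iPS and ES cells rests on it. The p-values of the linear model below measure the spread between the 3 samples of a group, pooled over the groups. The design text calls these samples biological replicates.

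DNA in a cell is wrapped on histones, and enzymes add or remove methyl and acetyl groups on the histone tails, while ATP-driven remodelers such as BAF, NuRD and the CHD proteins slide, eject or space nucleosomes. Methylation of lysine 9 of histone H3 marks silent chromatin, and methylation of its lysine 4 marks active promoters. In mouse ES cells a form of BAF built on Smarca4, Smarcc1, Smarcd1 and Arid1a has been described, whose paralogues Smarca2, Smarcc2 and Smarcd3 are used in other cell types. Several of these genes are known to be needed for ES cell self-renewal or to help or hinder reprogramming.

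Expression values were array signals, given below as log2(signal + 16) after each array had been scaled to a common trimmed mean, which before scaling ran from 11141.8 to 20355.5. A group mean above a log2 value of 11.04, the 95th percentile of 39 olfactory receptor genes, was taken as above background, and 32 of the 34 genes were above it in every group. The exceptions were Chd7, below it in MEF, and Smarca2, below it in all 4 lines. The identity of the cells was checked with marker genes. All 10 pluripotency genes were above background in each line, and in MEF 1 of the 10 was (Utf1). Of 9 measured fibroblast genes, 5 were above background in IP14D-1 and 2 in each other line, against all 9 in MEF. Their summed signal was 27780 to 29528 in IP14D-1, 10300 to 12373 in IP14D-101, 10532 to 14003 in IP20D-3 and 9429 to 11873 in CL11, against 4318575 to 4764782 in MEF. In bulk RNA, fewer cells of a type and less RNA per cell cannot be told apart. Array number limits the precision of every value, and levels are compared between groups within a gene, not between genes.

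Most of the genes were higher in the pluripotent lines than in the fibroblasts. With a moderated linear model (limma, adjusted p over all 18193 genes within a comparison), 25 of the 34 were higher and 5 lower in IP14D-1 than in MEF, where 52.8% of all genes passed the test (29.9% higher and 22.9% lower). In IP14D-101, 26 were higher and 7 lower, against 55.1% of all genes (30.4% higher and 24.7% lower). IP20D-3 had 25 higher and 5 lower, against 54.1% of all genes (30.4% higher and 23.7% lower). CL11 had 26 higher and 5 lower, against 54.1% of all genes (30.3% higher and 23.8% lower). The median log2 change of the 34 genes was 0.73 in IP14D-1, 1.06 in IP14D-101, 0.92 in IP20D-3 and 0.96 in CL11, and that of all genes was 0.13, 0.05, 0.10 and 0.07 in the same order. These 4 comparisons share the MEF arrays, so they are not independent of each other.

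Taken line by line, 24 genes were higher in all 4 lines, as were 23.5% of all genes and 34.0% of the 9611 genes above background in every group. In addition, 4 genes were lower in all lines, as were 17.3% of all genes and 24.3% of those above background. These were Setd7, whose other probe set ran the opposite way, Smarca2, Smarcc2 and Smarcd3. The other 6 genes (Kdm4b, Kdm5a, Kdm6b, Mta1, Mta2 and Hdac2) passed the test in some of the lines only. In 24 genes all 12 line arrays lay above all 3 MEF arrays, as in 23.4% of all genes, and in 6 genes they lay below (19.9% of all genes), namely Setd7, Kdm6b, Smarca2, Smarcc2, Smarcd3 and Hdac2. The summed signal of 9 measured proliferation genes moved with the lines as well. It was 2154298 to 2246839 in IP14D-1, 2442295 to 2567119 in IP14D-101, 2388784 to 2519975 in IP20D-3 and 2485399 to 2637405 in CL11, against 511839 to 536213 in MEF, and its part in the result was not tested. Macrophage genes except Cd68 moved the opposite way. Of the 7 measured, 3 were above background in IP14D-1 and 2 in each other line, against all 7 in MEF. Their summed signal was 18195 to 18597 in IP14D-1, 10490 to 14546 in IP14D-101, 14904 to 21982 in IP20D-3 and 27064 to 30280 in CL11, against 76006 to 78820 in MEF. The defining genes C1qa, C1qb and Ptprc were below background in every line and above it in MEF. Cd68 ran the other way, at 13.06 in IP14D-1, 12.42 in IP14D-101, 13.37 in IP20D-3 and 14.32 in CL11, against 12.04 in MEF. Csf1r was above background in all groups. The part of macrophages in the result was not tested. Without scaling of the arrays, where the median log2 change of all genes was -0.51 in IP14D-101, -0.52 in IP20D-3 and -0.34 in CL11, 15 of the 24 were still higher in all 4 lines. The 9 that were not were Ehmt1, Ehmt2, Dot1l, Carm1, Kdm6a, Chd1, Smarca4, Chd4 and Mbd3, and all 4 of the lower genes kept their calls.

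**Figure D1:**
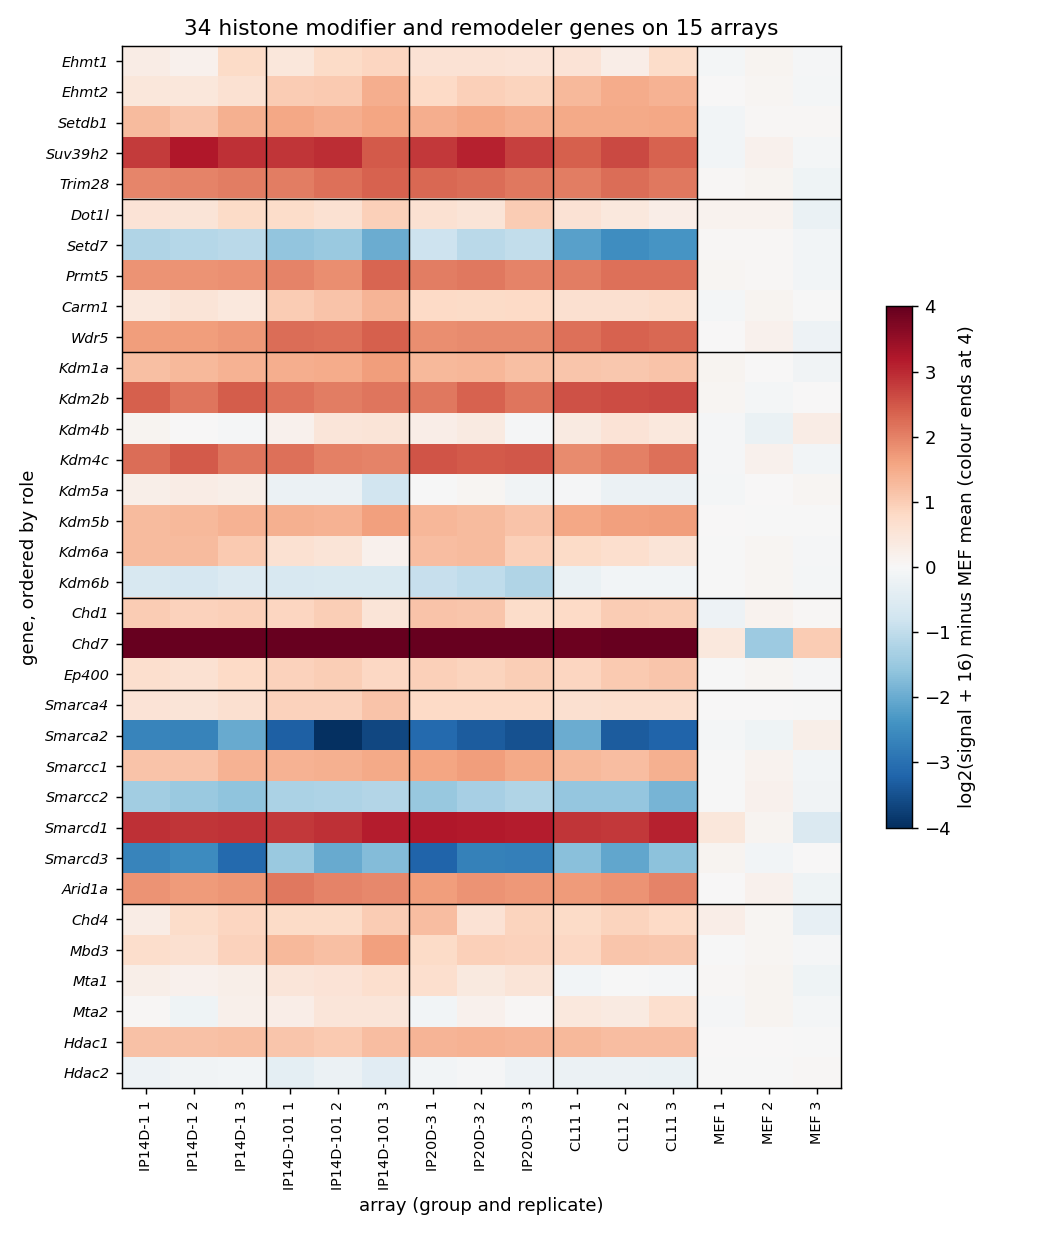
Each cell of the heat map is the log2(signal + 16) of one gene on one array minus the mean of the 3 MEF arrays, with the 34 genes ordered by role down the page and the 15 arrays across in the order IP14D-1, IP14D-101, IP20D-3, CL11 and MEF. Red is higher and blue lower than MEF, and the colour ends at 4. The 24 genes higher in all lines form red rows, and Setd7, Smarca2, Smarcc2 and Smarcd3 form blue rows across the 12 line arrays. Group means of Smarca2 in the lines and of Chd7 in MEF lie below background.

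**Figure D2:**
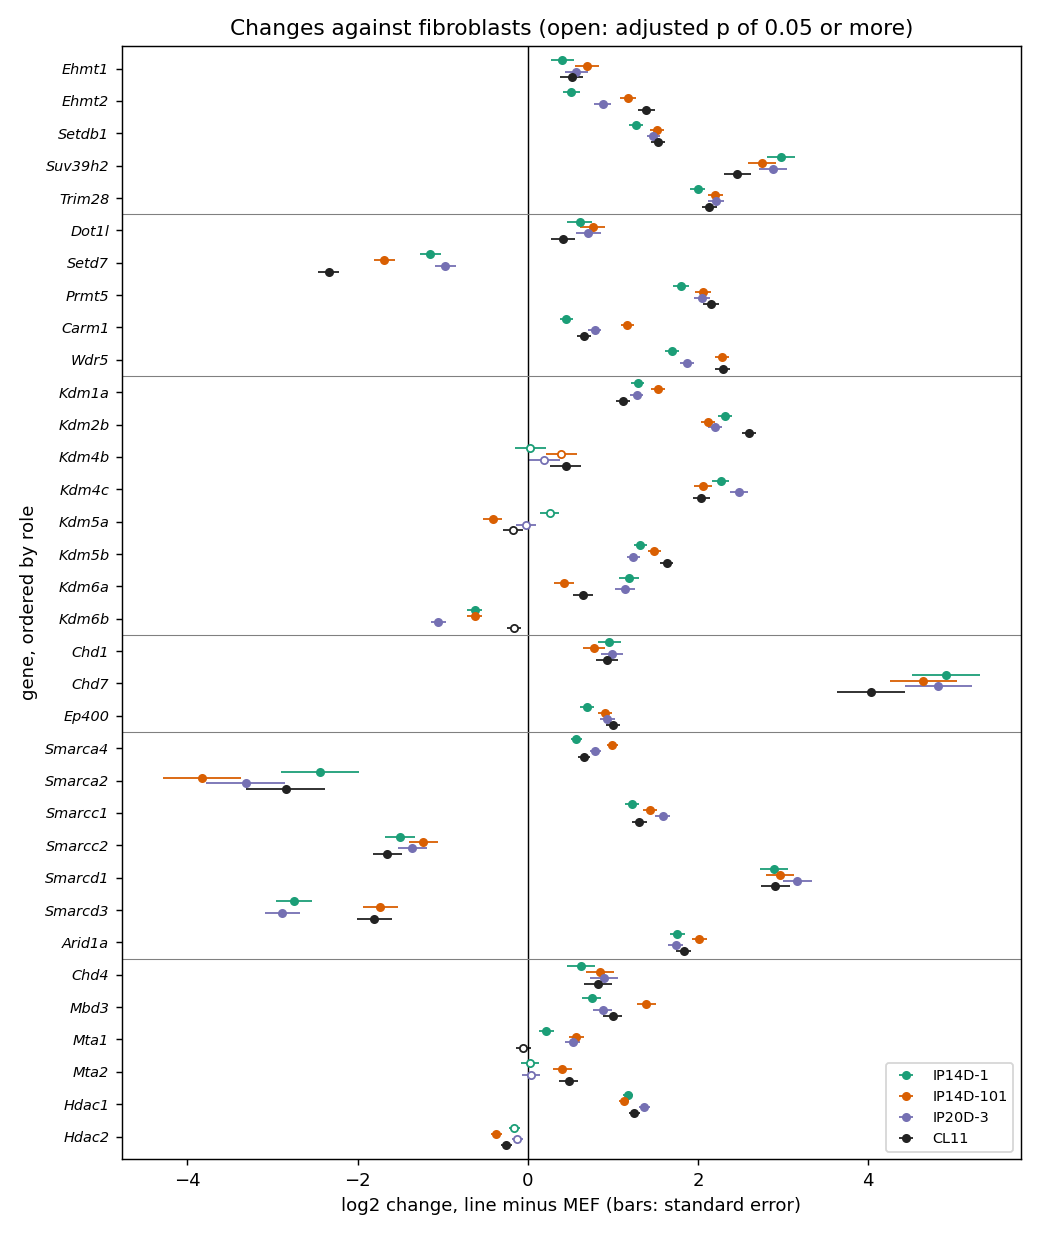
Points give the log2 change of each gene in a line minus MEF, with bars for the standard error of the limma model, and open points mark an adjusted p of 0.05 or more. Genes run down the page by role. Chd7 and Smarcd1 lie at the far right and Smarca2 and Smarcd3 at the far left, and the fitted values of Chd7 and Smarca2 rest on a group below background.

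Of the 9 pairs of paralogues tested, the 3 in the BAF complex moved furthest apart. Smarca4, Smarcc1, Smarcd1 and Arid1a were higher than in MEF in each of the 4 lines, and Smarca2, Smarcc2 and Smarcd3 were lower in each. Promoter windows of the 3 pairs are printed because members of a pair moved in opposite directions. Each runs from 250 bases before to 50 bases after a start listed for the gene in the RefSeq annotation of GRCm38.p6, 5′ to 3′ on the strand of the gene, with CG dinucleotides in capitals. Smarca4 lies at chr9:21615919-21616218 (+), Smarca2 at chr19:26604910-26605209 (+), Smarcc1 at chr9:110131774-110132073 (+), Smarcc2 at chr10:128458986-128459285 (+), Smarcd1 at chr15:99702037-99702336 (+) and Smarcd3 at chr5:24601953-24602252 (-). For the first 5 genes that start lies 0 to 87 bases inside the outer end of the annotated gene, but for Smarcd3 it lies 22454 bases inside, so the window is at an internal start and the outer start of Smarcd3 was not analysed here.
Smarca4: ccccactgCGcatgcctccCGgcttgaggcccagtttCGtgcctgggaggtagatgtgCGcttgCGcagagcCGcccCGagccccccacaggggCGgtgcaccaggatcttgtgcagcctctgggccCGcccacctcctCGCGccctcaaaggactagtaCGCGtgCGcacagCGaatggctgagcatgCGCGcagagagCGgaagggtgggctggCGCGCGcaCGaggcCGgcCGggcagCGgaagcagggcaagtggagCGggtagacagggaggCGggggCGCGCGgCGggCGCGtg
Smarca2: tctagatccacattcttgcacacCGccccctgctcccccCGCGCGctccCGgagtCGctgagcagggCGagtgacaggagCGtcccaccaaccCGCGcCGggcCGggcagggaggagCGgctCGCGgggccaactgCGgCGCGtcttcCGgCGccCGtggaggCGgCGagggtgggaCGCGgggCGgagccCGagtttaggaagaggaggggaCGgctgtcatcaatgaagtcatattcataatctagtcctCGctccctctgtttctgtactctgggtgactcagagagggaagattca
Smarcc1: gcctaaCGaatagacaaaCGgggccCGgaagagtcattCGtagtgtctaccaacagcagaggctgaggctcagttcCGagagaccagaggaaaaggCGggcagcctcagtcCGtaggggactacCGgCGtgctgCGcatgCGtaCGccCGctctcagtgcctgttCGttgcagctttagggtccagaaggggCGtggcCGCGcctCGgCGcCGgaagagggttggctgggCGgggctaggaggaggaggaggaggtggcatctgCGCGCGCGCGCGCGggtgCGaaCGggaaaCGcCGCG
Smarcc2: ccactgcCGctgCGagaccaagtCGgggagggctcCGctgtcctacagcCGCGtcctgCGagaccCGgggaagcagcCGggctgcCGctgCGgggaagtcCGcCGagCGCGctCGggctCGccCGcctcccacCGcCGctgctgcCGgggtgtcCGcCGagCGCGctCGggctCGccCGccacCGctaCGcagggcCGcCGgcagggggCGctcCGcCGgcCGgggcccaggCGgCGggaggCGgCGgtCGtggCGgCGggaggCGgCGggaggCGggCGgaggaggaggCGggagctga
Smarcd1: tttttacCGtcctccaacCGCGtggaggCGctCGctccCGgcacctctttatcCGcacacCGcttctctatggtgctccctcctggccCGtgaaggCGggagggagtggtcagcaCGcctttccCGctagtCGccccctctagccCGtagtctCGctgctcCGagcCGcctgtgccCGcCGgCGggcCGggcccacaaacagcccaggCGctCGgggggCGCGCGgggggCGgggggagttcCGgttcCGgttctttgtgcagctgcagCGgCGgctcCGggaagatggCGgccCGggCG
Smarcd3: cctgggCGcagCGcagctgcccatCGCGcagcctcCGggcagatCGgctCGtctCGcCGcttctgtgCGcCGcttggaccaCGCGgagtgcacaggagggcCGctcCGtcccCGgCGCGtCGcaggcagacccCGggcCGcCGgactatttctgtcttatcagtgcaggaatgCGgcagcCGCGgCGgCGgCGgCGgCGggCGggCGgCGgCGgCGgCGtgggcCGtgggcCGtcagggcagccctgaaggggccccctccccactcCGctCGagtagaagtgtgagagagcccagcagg
The windows held 33, 29, 33, 48, 35 and 40 CG dinucleotides in the order printed. Of the 34 measured genes, 27 had a window in the RefSeq table, with a median of 30 CG dinucleotides and 66% G or C, and 14452 of the 18193 array genes had one, with a median of 17 and 58.7%. Some genes had several windows, which were averaged, and 6 of the 34 windows of the listed genes had a start over 1000 bases inside the gene. The promoters were searched for motifs on both strands, and a gene counted if any of its windows held the motif. The E-box CACGTG stood in 3 of the 27 genes (11.1%) and in 10.2% of all array genes with a window. The E2F motif in the forms TTTCGCGC or TTTGGCGC stood in 0 of the 27 genes and in 1.45% of all with a window. The palindromic NRF1 motif stood in 0 of the 27 genes and in 1.75% of all. The octamer ATGCAAAT stood in 1 gene (3.70%) and in 1.68% of all. None of the 6 printed windows held any of these letters, which says nothing of the factors that bind there.

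Smarca4 and Smarca2 are the alternative ATPases of BAF. Smarca4 read 17.00, 16.96 and 17.09 in IP14D-1, 17.38, 17.36 and 17.57 in IP14D-101, 17.23, 17.25 and 17.23 in IP20D-3, 17.07, 17.11 and 17.13 in CL11, against 16.45, 16.46 and 16.42 in MEF. All 12 line arrays lay above MEF, with log2 changes of 0.57 in IP14D-1, 1.00 in IP14D-101, 0.80 in IP20D-3 and 0.66 in CL11 (standard error, SE, 0.07 each, adjusted p at most 4.2e-07 in limma). A second probe set of Smarca4 ran the same way. Smarca2 read 10.71, 10.67 and 11.32 in IP14D-1, 10.09, 8.76 and 9.69 in IP14D-101, 10.22, 9.9978 and 9.85 in IP20D-3, 11.34, 9.9996 and 10.15 in CL11, against 13.28, 13.16 and 13.59 in MEF. Both arrays of the lines that passed background (1 of IP14D-1 and 1 of CL11) lay below the dimmest MEF array. Compared with MEF, the signal of Smarca2 in IP14D-1 was at least 4.62-fold lower (adjusted p = 0.00016), in IP14D-101 at least 4.94-fold lower (7.3e-07), in IP20D-3 at least 4.94-fold lower (4.7e-06) and in CL11 at least 4.60-fold lower (2.9e-05). Its second probe set averaged 10.429, 8.549, 10.789 and 10.335 in the same order of lines, all below background, against 11.536 in MEF. The log2 changes fitted on it, -1.11, -2.99, -0.75 and -1.20, thus rest on values below background. With that probe set in place of the brightest, Smarca2 passed the test in IP14D-101 alone.

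Smarcc1 and Smarcc2 are the paralogous scaffold subunits on which BAF is assembled. Smarcc1 read 16.91, 16.92 and 17.19 in IP14D-1, 17.18, 17.20 and 17.29 in IP14D-101, 17.37, 17.44 and 17.30 in IP20D-3, 17.08, 17.02 and 17.19 in CL11, against 15.76, 15.91 and 15.68 in MEF. The groups did not overlap, and the log2 changes were 1.22, 1.44, 1.58 and 1.31 (SE 0.08) in the 4 lines in that order, with adjusted p at most 3.1e-10. Smarcc2 read 12.52, 12.44 and 12.31 in IP14D-1, 12.66, 12.69 and 12.75 in IP14D-101, 12.41, 12.59 and 12.71 in IP20D-3, 12.37, 12.39 and 12.06 in CL11, against 13.90, 14.11 and 13.77 in MEF. Here the 12 line arrays lay between 12.06 and 12.75, all below the 3 MEF arrays. The changes of Smarcc2 were -1.50 in IP14D-1, -1.23 in IP14D-101, -1.36 in IP20D-3 and -1.65 in CL11 (SE 0.17), with adjusted p at most 5.1e-06.

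Smarcd1 and Smarcd3 encode alternative accessory subunits through which transcription factors contact BAF, and Smarcd3 is known for its role in heart and muscle. Smarcd1 read 15.67, 15.62 and 15.63 in IP14D-1, 15.59, 15.67 and 15.88 in IP14D-101, 15.95, 15.91 and 15.89 in IP20D-3, 15.60, 15.57 and 15.81 in CL11, against 13.20, 12.87 and 12.17 in MEF. Line arrays spanned 15.57 to 15.95, far above the MEF arrays, which themselves were spread more widely than those of any line. Smarcd1 was 2.89 higher on the log2 scale in IP14D-1, 2.97 in IP14D-101, 3.17 in IP20D-3 and 2.91 in CL11 (SE 0.17, adjusted p at most 2.9e-11). Smarcd3 read 12.11, 12.25 and 11.65 in IP14D-1, 13.28, 12.75 and 13.03 in IP14D-101, 11.56, 12.04 and 12.01 in IP20D-3, 13.07, 12.68 and 13.10 in CL11, against 14.86, 14.64 and 14.76 in MEF. All lines were below MEF, and the IP14D-1 and IP20D-3 arrays also lay below every IP14D-101 and CL11 array. Its changes were -2.75, -1.74, -2.88 and -1.80 (SE 0.21) in IP14D-1, IP14D-101, IP20D-3 and CL11, with adjusted p at most 6.3e-07.

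Arid1a, the DNA-binding subunit that defines the canonical form of BAF, read 17.37 to 17.82 across the lines, against 15.51 to 15.87 in MEF. Its log2 changes were 1.76, 2.02, 1.74 and 1.83 (SE 0.09) in the 4 lines, and a second probe set ran the same way. The unequal change within each pair was tested on the per-array log2 ratio of the 2 paralogues, with an exact permutation test over all labellings of the 12 line and 3 MEF arrays, two-sided and adjusted over 9 pairs of the list. The ratio of Smarca4 to Smarca2 was 3.86 log2 units higher in the lines than in MEF, that of Smarcc1 to Smarcc2 2.82 higher and that of Smarcd1 to Smarcd3 5.28 higher. In all 3 pairs every line array lay above every MEF array (exact p = 0.0022, the smallest this design allows, adjusted p = 0.0028). That outcome was fixed by the single genes. The first gene of each pair lay above MEF on every line array and the second lay below it on every line array. For these pairs the test therefore adds nothing to the changes of the single genes. In this test, here and for the other pairs, arrays of the same line count as separate units. Its p-values therefore do not measure the spread between lines. Smarca2 was below background in the lines on both of its probe sets, so the size of its ratio to Smarca4 rests on values below background. With the second probe set of Smarca2 in place of the brightest the ratio of Smarca4 to Smarca2 was 2.27 higher.

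**Figure D3:**
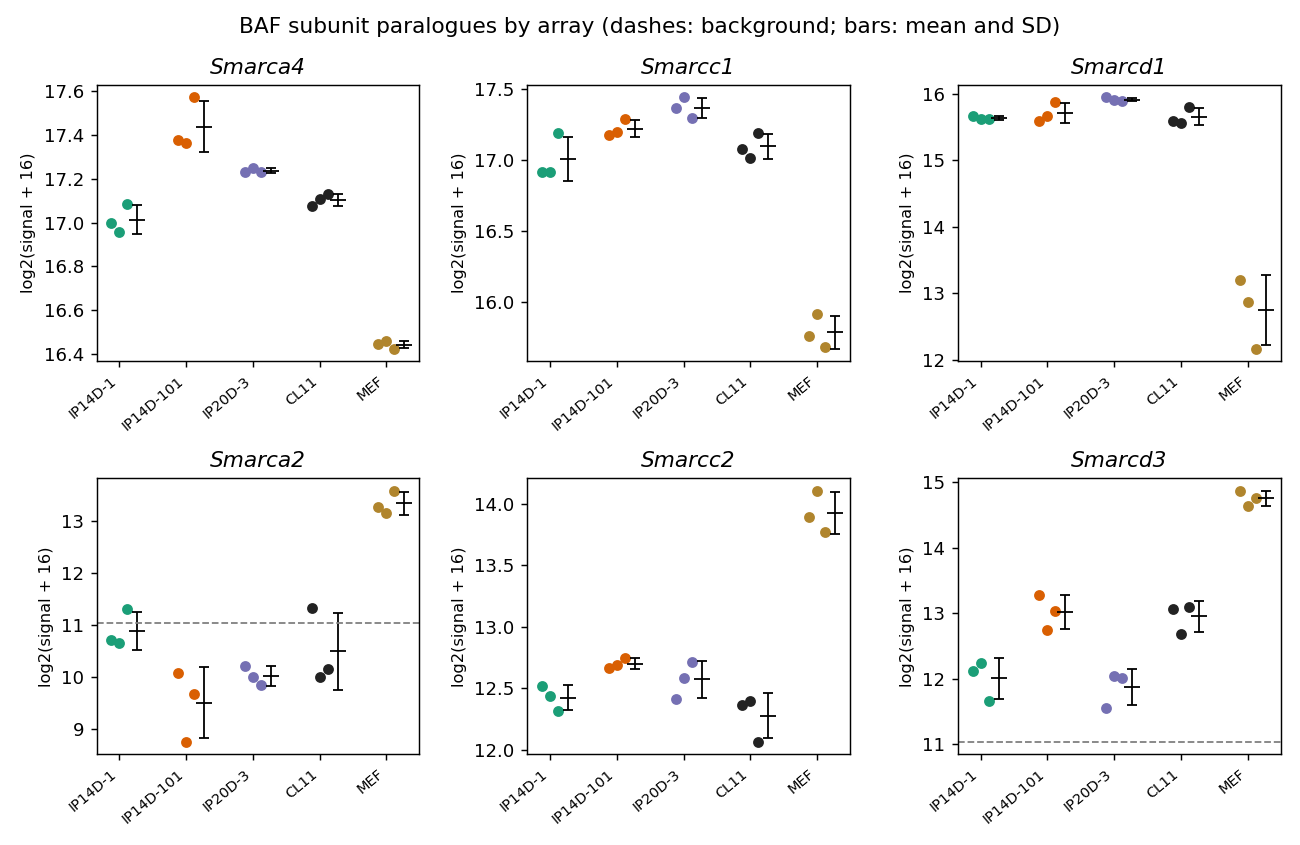
Panels show log2(signal + 16) for BAF subunit genes, with 1 point per array, a bar for the group mean and SD (n = 3), a dashed line at background and the groups in the order IP14D-1, IP14D-101, IP20D-3, CL11 and MEF. Smarca4, Smarcc1 and Smarcd1 are higher in the lines than in MEF, and Smarca2, Smarcc2 and Smarcd3 are lower.

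All 5 measured genes of lysine 9 methylation on histone H3 were higher in every line than in MEF. Trim28 is the corepressor that brings Setdb1 to retroviral sequences. Trim28 read 19.00, 19.05 and 19.12 in IP14D-1, 19.12, 19.27 and 19.41 in IP14D-101, 19.35, 19.30 and 19.16 in IP20D-3, 19.11, 19.30 and 19.17 in CL11, against 17.11, 17.18 and 16.89 in MEF. Every line array read 19.00 or more and no MEF array passed 17.18. The changes of Trim28 were 2.00, 2.21, 2.21 and 2.13 (SE 0.09) in the 4 lines, with adjusted p at most 7.9e-13. Setdb1, which trimethylates this lysine, was 1.27, 1.52, 1.48 and 1.53 higher (SE 0.08), with line arrays at 15.51 to 15.95 and MEF arrays at 14.28 to 14.44.

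Suv39h2, a trimethylating enzyme of constitutive heterochromatin, showed the widest gap of this role. Suv39h2 read 14.18, 14.59 and 14.29 in IP14D-1, 14.25, 14.33 and 13.82 in IP14D-101, 14.22, 14.45 and 14.11 in IP20D-3, 13.78, 14.01 and 13.74 in CL11, against 11.28, 11.57 and 11.29 in MEF. The lines did not overlap MEF, whose arrays lay just above the background level, and were 2.98, 2.75, 2.88 and 2.46 higher (SE 0.16, adjusted p at most 1.4e-10). Ehmt1 and Ehmt2 form the heterodimer that mono- and dimethylates the same lysine. Ehmt2 read 16.54, 16.55 and 16.71 in IP14D-1, 17.10, 17.15 and 17.56 in IP14D-101, 16.89, 17.03 and 16.98 in IP20D-3, 17.39, 17.57 and 17.49 in CL11, against 16.10, 16.17 and 16.001 in MEF. The changes of Ehmt2 were 0.51, 1.18, 0.88 and 1.40 (SE 0.10), and the order of the groups was the same on its second probe set. Ehmt1 changed by 0.40, 0.70, 0.57 and 0.52 (SE 0.14), and lost the call in IP14D-1 with median scaling (adjusted p = 0.057) or with no variance trend (0.061). It was also lost there without MEF replicate 1 (0.063) or without IP14D-1 replicate 3 (0.15). Without scaling Ehmt1 lost the call in every line (adjusted p = 0.056 to 0.71). The ratio of Ehmt1 to Ehmt2 in the lines minus MEF was -0.44 log2 units, with overlapping arrays and an exact permutation adjusted p of 0.057.

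Of the 5 other methyltransferase genes, 4 were higher and 1 was lower in each line. Wdr5 is the adaptor that holds together the complexes methylating lysine 4 of histone H3. Wdr5 read 16.33, 16.36 and 16.41 in IP14D-1, 16.92, 16.88 and 17.08 in IP14D-101, 16.52, 16.55 and 16.56 in IP20D-3, 16.89, 17.02 and 16.98 in CL11, against 14.69, 14.85 and 14.48 in MEF. The groups were far apart, with changes of 1.69, 2.29, 1.87 and 2.29 (SE 0.08, adjusted p at most 2.7e-12), and the second probe set ran the same way. Prmt5, which dimethylates arginines symmetrically, read 17.66 to 18.20 in the lines, against 15.75 to 15.94 in MEF, and changed by 1.80, 2.06, 2.04 and 2.15 (SE 0.09). Carm1, an arginine methyltransferase that acts as a coactivator, changed by 0.45, 1.17, 0.79 and 0.66 (SE 0.08). Dot1l, the enzyme of lysine 79 of histone H3, changed by 0.61, 0.76, 0.71 and 0.41 (SE 0.14). In CL11 Dot1l lost the call with no variance trend (adjusted p = 0.054), without CL11 replicate 1 (0.093) and without MEF replicate 3 (0.13). Without scaling Dot1l lost the call in IP14D-101 (adjusted p = 0.29), IP20D-3 (0.69) and CL11 (0.99).

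Setd7, a monomethyltransferase with histone and non-histone substrates, was the member of this role that fell. Setd7 read 14.76, 14.83 and 14.88 in IP14D-1, 14.38, 14.48 and 13.98 in IP14D-101, 15.13, 14.88 and 14.98 in IP20D-3, 13.79, 13.47 and 13.62 in CL11, against 16.02, 16.01 and 15.87 in MEF. No line array reached the MEF arrays, and CL11 arrays were below all iPS arrays. Its changes were -1.14 in IP14D-1, -1.69 in IP14D-101, -0.97 in IP20D-3 and -2.34 in CL11 (SE 0.12, adjusted p at most 1.1e-06). The other probe set of Setd7 ran the opposite way, with group means of 11.63, 12.05, 12.09 and 12.20 in the 4 lines against 10.90 in MEF, which is below background. With the mean of both probe sets Setd7 lost its call in IP14D-1 and IP14D-101 and its direction in IP20D-3 (0.11). The fall of Setd7 rests on a single probe set in every line, CL11 included.

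Among the 8 demethylase genes, 5 were higher than MEF in every line, and the 3 others differed from line to line. Kdm2b, which binds unmethylated CG islands and brings a Polycomb complex there, was higher in each. Kdm2b read 17.30, 17.07 and 17.32 in IP14D-1, 17.07, 16.96 and 17.06 in IP14D-101, 17.01, 17.27 and 17.05 in IP20D-3, 17.45, 17.51 and 17.57 in CL11, against 14.98, 14.84 and 14.93 in MEF. No line array came near the MEF arrays, with changes of 2.32, 2.12, 2.20 and 2.60 (SE 0.08, adjusted p at most 8.3e-14). Kdm4c, which removes methyl groups from lysine 9 of histone H3, changed by 2.27, 2.06, 2.49 and 2.04 (SE 0.10), with line arrays at 15.21 to 15.83 and MEF arrays at 13.18 to 13.47. Its paralogue Kdm4b changed by 0.03, 0.39, 0.19 and 0.44 (SE 0.18) and passed the test in CL11 alone (adjusted p = 0.047), where the call was lost without scaling (0.93), in a fit of CL11 and MEF only (0.067), with the replicate number as a block (0.064), and without any 1 of the CL11 arrays or without MEF replicate 1 or 2 (0.062 to 0.20).

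Kdm1a, the flavin-dependent demethylase of lysine 4 on histone H3, changed by 1.29, 1.53, 1.28 and 1.12 (SE 0.08). Kdm5b, a trimethyl-lysine 4 demethylase, changed by 1.32, 1.48, 1.24 and 1.63 (SE 0.08). Its paralogue Kdm5a did not follow it. Kdm5a read 15.37, 15.45 and 15.37 in IP14D-1, 14.89, 14.90 and 14.38 in IP14D-101, 15.13, 15.22 and 15.00 in IP20D-3, 15.08, 14.90 and 14.92 in CL11, against 15.06, 15.15 and 15.20 in MEF. IP14D-101 was below MEF (-0.41, SE 0.11, adjusted p = 0.0046), a call lost with median scaling (-0.07, 0.62) and with the mean of probe sets (-0.46, 0.14), while IP14D-1 was 0.26 above MEF with an adjusted p of 0.070, and 1 of the 4 other usable probe sets of Kdm5a ran opposite to the rest.

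Kdm6a and Kdm6b remove methyl groups from lysine 27 of histone H3, the Polycomb mark, and Kdm6a is X-linked with a Y copy, Uty. Kdm6a read 15.40, 15.40 and 15.19 in IP14D-1, 14.76, 14.64 and 14.30 in IP14D-101, 15.36, 15.39 and 15.09 in IP20D-3, 14.89, 14.80 and 14.67 in CL11, against 14.11, 14.23 and 14.09 in MEF. Kdm6a was higher in every line, with changes of 1.19, 0.43, 1.14 and 0.65 (SE 0.12). A second probe set had changes of 1.36, 1.09, 1.72 and 1.39, and another, dimmer one had 0.70, -0.88, 0.33 and -0.46. With the mean of its probe sets Kdm6a kept the call in IP14D-1 alone (adjusted p = 0.13, 0.14 and 0.51 in IP14D-101, IP20D-3 and CL11), and without scaling its change in IP14D-101 was -0.14. That mean takes in a probe set that was below background in every group. Of 6 measured sex-linked genes, Xist, Uty and Eif2s3y differed widely between the lines and MEF. Xist averaged 13.67, 13.22, 13.58 and 13.05 in IP14D-1, IP14D-101, IP20D-3 and CL11, against 16.92 in MEF. Uty averaged 13.85, 12.34, 13.69 and 12.83 in the lines and was below background in MEF (7.65). Eif2s3y averaged 15.63, 14.19, 15.69 and 14.13 in the lines and was below background in MEF (8.29). The Y-linked Kdm5d was below background in all groups, the X-linked Eif2s3x averaged 17.63 to 17.87 in the lines, against 17.51 in MEF, and the X-linked Kdm5c 13.86 to 14.35, against 14.34 in MEF. The part of the sex of the cells in the Kdm6a result was not tested.

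Kdm6b read 14.80, 14.75 and 14.88 in IP14D-1, 14.78, 14.81 and 14.83 in IP14D-101, 14.49, 14.42 and 14.22 in IP20D-3, 15.16, 15.33 and 15.32 in CL11, against 15.42, 15.51 and 15.36 in MEF. Kdm6b lay below MEF on all line arrays. It fell in the 3 iPS lines (-0.62, -0.62 and -1.05, SE 0.09, adjusted p at most 6.0e-06), and in CL11 its change of -0.16 did not pass the test (0.14). With median scaling the call in IP14D-101 was lost (-0.28, adjusted p = 0.065). A second probe set above background had changes of -0.03, -0.02, -0.21 and 0.14, and a dimmer one had -0.69, -1.06, -1.17 and -0.93. The paralogue ratios differed from MEF in these families as well. Kdm4b to Kdm4c was -1.95, Kdm5a to Kdm5b -1.51 and Kdm6a to Kdm6b 1.47 log2 units in the lines minus MEF, without overlap of arrays in any of the 3 (adjusted exact permutation p = 0.0028 each), and with the mean of probe sets that of Kdm5a to Kdm5b was -0.98. For Kdm6a to Kdm6b that outcome was fixed by the single genes, as Kdm6a lay above and Kdm6b below MEF on every line array.

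The 3 remodelers of the CHD and p400 role were higher in every line. Chd7 is an ATPase that binds enhancers and is known in humans for its mutation in CHARGE syndrome. Chd7 read 14.30, 14.38 and 14.64 in IP14D-1, 14.30, 14.48 and 13.75 in IP14D-101, 14.30, 14.36 and 14.40 in IP20D-3, 13.44, 13.64 and 13.61 in CL11, against 9.96, 8.07 and 10.55 in MEF. All line arrays were far above background and all MEF arrays below it. Against MEF, IP14D-1 had at least 10.6-fold more Chd7 signal, IP14D-101 at least 8.82-fold, IP20D-3 at least 9.97-fold and CL11 at least 5.75-fold (adjusted p at most 4.6e-08), and its other probe set ran the same way. Chd1, known for keeping ES cell chromatin open, read 14.38 to 15.00 in the lines, against 13.68 to 14.01 in MEF, and changed by 0.96, 0.78, 0.99 and 0.93 (SE 0.13). The other probe sets of Chd1 ran the same way, with 0.42 to 0.80 averaged over the lines, and in CL11 they changed by 1.19, 0.12 and 0.18. Ep400, the ATPase of the TIP60-p400 complex, changed by 0.70, 0.91, 0.94 and 1.00 (SE 0.08). Its 4 other usable probe sets ran the same way, with changes of 0.41 to 0.78 averaged over the lines. With the mean of all its probe sets, some of them below background in every group, it passed the test in none of the lines.

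NuRD joins an ATPase to histone deacetylases, and its 6 genes were divided. Hdac1 and Hdac2 are its paralogous deacetylases. Hdac1 read 18.23, 18.21 and 18.25 in IP14D-1, 18.18, 18.09 and 18.28 in IP14D-101, 18.41, 18.45 and 18.42 in IP20D-3, 18.34, 18.29 and 18.29 in CL11, against 17.06, 17.06 and 17.04 in MEF. All line arrays read 18.09 or more and no MEF array passed 17.06, and the changes of Hdac1 were 1.18, 1.13, 1.37 and 1.25 (SE 0.06, adjusted p at most 7.6e-12). Hdac2 read 16.68, 16.75 and 16.77 in IP14D-1, 16.50, 16.64 and 16.42 in IP14D-101, 16.78, 16.84 and 16.69 in IP20D-3, 16.65, 16.64 and 16.62 in CL11, against 16.87, 16.88 and 16.92 in MEF. Hdac2 was slightly lower on all 12 line arrays than on any MEF array. Its change passed the test in IP14D-101 (-0.37, adjusted p = 0.00011) and CL11 (-0.25, 0.0036), both lost with median scaling, whereas IP20D-3 (-0.12, 0.14) and IP14D-1 (-0.16, 0.060) missed it. The ratio of Hdac1 to Hdac2 was 1.46 log2 units higher in the lines, without overlap (adjusted exact permutation p = 0.0028). Hdac1 lay above and Hdac2 below MEF on every line array, so this outcome was fixed by the single genes.

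Chd4, the ATPase of NuRD, changed by 0.62, 0.85, 0.90 and 0.82 (SE 0.16), and Mbd3, the subunit that joins its deacetylase and remodeler parts, by 0.75, 1.39, 0.88 and 1.00 (SE 0.11). A second probe set of Chd4 had changes of 0.59, 0.78, 0.59 and 1.11, and a dimmer one had smaller changes of 0.11, 0.10, 0.27 and 0.41. Mta1 and Mta2 are alternative scaffold subunits. Mta1 read 15.36, 15.30 and 15.36 in IP14D-1, 15.62, 15.67 and 15.80 in IP14D-101, 15.79, 15.53 and 15.64 in IP20D-3, 15.02, 15.11 and 15.08 in CL11, against 15.17, 15.24 and 14.96 in MEF. Mta1 was higher than MEF in the 3 iPS lines (0.22, 0.57 and 0.53, SE 0.09) and not in CL11 (-0.05, adjusted p = 0.66). In IP20D-3 the direction turned without scaling (-0.11) and with the mean of probe sets (-0.23), and in IP14D-101 the call was lost under the same settings. The other probe set in that mean was below background in every group. In IP14D-1 the call was lost under most alternatives, among them median scaling (adjusted p = 0.23), no variance trend (0.090) and leaving out any 1 of its 3 arrays (0.068 to 0.11). Mta2 read 15.14, 14.93 and 15.28 in IP14D-1, 15.34, 15.55 and 15.58 in IP14D-101, 14.98, 15.25 and 15.14 in IP20D-3, 15.51, 15.44 and 15.75 in CL11, against 15.05, 15.20 and 15.01 in MEF. Mta2 passed the test in IP14D-101 (0.41, SE 0.11) and CL11 (0.48), while IP14D-1 (0.03) and IP20D-3 (0.04) were near MEF. Without scaling neither call of Mta2 held, and its change in IP14D-101 was -0.17. The ratio of Mta1 to Mta2 differed from MEF by 0.08 with an adjusted exact permutation p of 0.78.

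Between the pluripotent lines the differences were smaller. The range of the 4 line means had a median of 0.43 log2 units over the 34 genes, against 0.77 over all genes and 0.52 over the genes above background in all groups. By a moderated F test among the lines 22 of the 34 differed, where 38.5% of all genes and 61.4% of the genes above background in all groups did. The widest ranges among genes above background were those of Setd7 (1.37), Smarcd3 (1.15), Kdm6b (0.89), Chd7 (0.88, not past the test) and Ehmt2 (0.89). The test pools the spread of all groups, also that of MEF. For Chd7 the MEF arrays, below background, had an SD of 1.30, against 0.05 to 0.38 in the lines. Its CL11 arrays (13.435 to 13.645) lay below all iPS arrays (13.75 to 14.645). A second probe set of Chd7 averaged 13.89 in CL11 and 14.49 to 14.70 in the iPS lines. Against CL11, IP14D-1 had 5 genes higher and 10 lower, where 24.3% of all genes passed the test (11.7% higher and 12.6% lower). IP14D-101 had 6 higher and 2 lower, against 11.5% of all genes (6.05% higher and 5.45% lower). IP20D-3 had 5 higher and 7 lower, against 21.9% (10.6% higher and 11.3% lower). These 3 comparisons share the CL11 arrays. Between iPS lines, IP14D-1 had 5 genes higher and 12 lower than IP14D-101, where 28.0% of all genes passed (13.1% higher and 14.9% lower). It had 1 higher and 5 lower than IP20D-3, against 9.19% of all genes (4.32% higher and 4.87% lower). IP14D-101 had 11 higher and 6 lower than IP20D-3, against 23.5% (12.5% higher and 11.0% lower). Of the 5 genes higher in IP14D-1 than in IP14D-101, Smarca2 was below background in both.

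Most of these line differences moved with the scaling of the arrays, and 13 of 75 called gene differences kept direction and call under every alternative run, or 26 of 75 when the setting without scaling is set aside. Without scaling, IP14D-1 minus IP14D-101 gave 13 genes higher and 0 lower, and IP14D-1 minus IP20D-3 gave 23 higher and 0 lower, while the median of all genes in those comparisons was 0.51 and 0.56. With median scaling they gave 2 higher and 23 lower, and 0 higher and 2 lower. IP14D-1 minus CL11 gave 10 higher and 1 lower without scaling and 1 higher and 15 lower with median scaling. IP14D-101 minus CL11 gave 2 higher and 3 lower, and 5 higher and 0 lower, under the same pair of settings. IP20D-3 minus CL11 gave 2 higher and 7 lower without scaling and 3 higher and 7 lower with median scaling, and IP14D-101 minus IP20D-3 gave 8 higher and 2 lower, and 11 higher and 2 lower. Quantile normalization gave 6 higher and 7 lower for the last pair. Against MEF, IP20D-3 gave 16 higher and 8 lower without scaling, and CL11 gave 19 and 8. The 3′ to 5′ signal ratio of the actin control probe sets also differed, at 1.37 ± 0.037 in IP14D-1, 1.22 ± 0.064 in IP14D-101, 1.28 ± 0.026 in IP20D-3 and 1.21 ± 0.018 in CL11, against 1.16 ± 0.019 in MEF (SD, n = 3 each), and its part in the line differences was not tested.

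The differences that held under every alternative involved 10 genes. Smarcd3 was lower in IP20D-3 than in CL11 (-1.08, SE 0.21, adjusted p = 0.00084) and higher in IP14D-101 than in IP20D-3 (1.15, SE 0.21, 0.00048). Primitive endoderm markers moved with it. Their summed signal was 59061 to 63210 in IP14D-1, 302182 to 347279 in IP14D-101, 42739 to 46161 in IP20D-3 and 434858 to 437421 in CL11, and the number of the 10 markers above background was 5, 10, 4 and 10 in the same order. The sum in MEF was higher still, at 744228 to 803340, though Gata4, Sox17, Foxa2, Sox7 and Cubn were below background there. Gata6, Sox17 and Foxa2, defining markers, were below background in IP14D-1 and IP20D-3 and above it in the other 2 lines. The part of these markers in the Smarcd3 difference was not tested. The means of other listed genes split the lines in the same way. Among them, Wdr5, Mta2 and Ehmt2 were lower and Kdm6a was higher in IP14D-1 and IP20D-3 than in IP14D-101 and CL11.

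Setd7 was higher in IP20D-3 than in CL11 by 1.37 (SE 0.12, adjusted p = 2.1e-07), on the one probe set that fell against MEF, and on it IP14D-1 (1.20) and IP14D-101 (0.65) were higher too, while its other probe set averaged 12.09 in IP20D-3 and 12.20 in CL11. Ehmt2 was lower in IP14D-1 (-0.89, SE 0.10, 3.9e-06) and in IP20D-3 (-0.52, 0.00089) than in CL11, and its second probe set averaged 14.21 in IP14D-1 and 14.79 in IP20D-3, against 15.45 in CL11. Kdm6b was lower in IP20D-3 than in CL11 (-0.89, SE 0.09, 8.8e-07). Wdr5 was lower in IP20D-3 than in CL11 (-0.42, SE 0.08, 0.0012) and higher in IP14D-101 than in IP20D-3 (0.42, 0.0012), with means of 16.02, 15.65 and 15.99 on its second probe set in IP14D-101, IP20D-3 and CL11.

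Kdm2b (-0.40, SE 0.08) and Mta2 (-0.44, SE 0.11) were lower in IP20D-3 than in CL11. Carm1 (0.38, SE 0.08) and Mbd3 (0.51, SE 0.11) were higher in IP14D-101 than in IP20D-3. Kdm5a was higher in IP14D-1 than in IP14D-101 (0.67, SE 0.11, adjusted p = 0.00023). Apart from these, Mta1 was higher in all 3 iPS lines than in CL11, by 0.27 (adjusted p = 0.033), 0.63 (0.00011) and 0.58 (9.1e-05), on its single usable probe set, and with the mean of its probe sets the difference in IP20D-3 was -0.11. Kdm6a was higher in IP14D-1 (0.54, SE 0.12, adjusted p = 0.0022) and IP20D-3 (0.49, 0.0049) than in CL11. The means of Uty ran in the same order over the 4 lines as those of Kdm6a, from IP14D-1 through IP20D-3 and CL11 down to IP14D-101. No other sex-linked gene above background in the lines (Eif2s3y, Xist, Eif2s3x and Kdm5c) kept to this order. Eif2s3y was highest in IP20D-3 (15.69) and lowest in CL11 (14.13), and Xist was also lowest in CL11 (13.05). Both were, like Kdm6a, higher in IP14D-1 and IP20D-3 than in CL11 and IP14D-101, whereas Eif2s3x and Kdm5c were lowest in IP14D-1. The second probe set of Kdm6a gave another order, with 15.08 in IP20D-3, 14.72 in IP14D-1 and 14.45 in IP14D-101, against 14.75 in CL11.

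**Figure D4:**
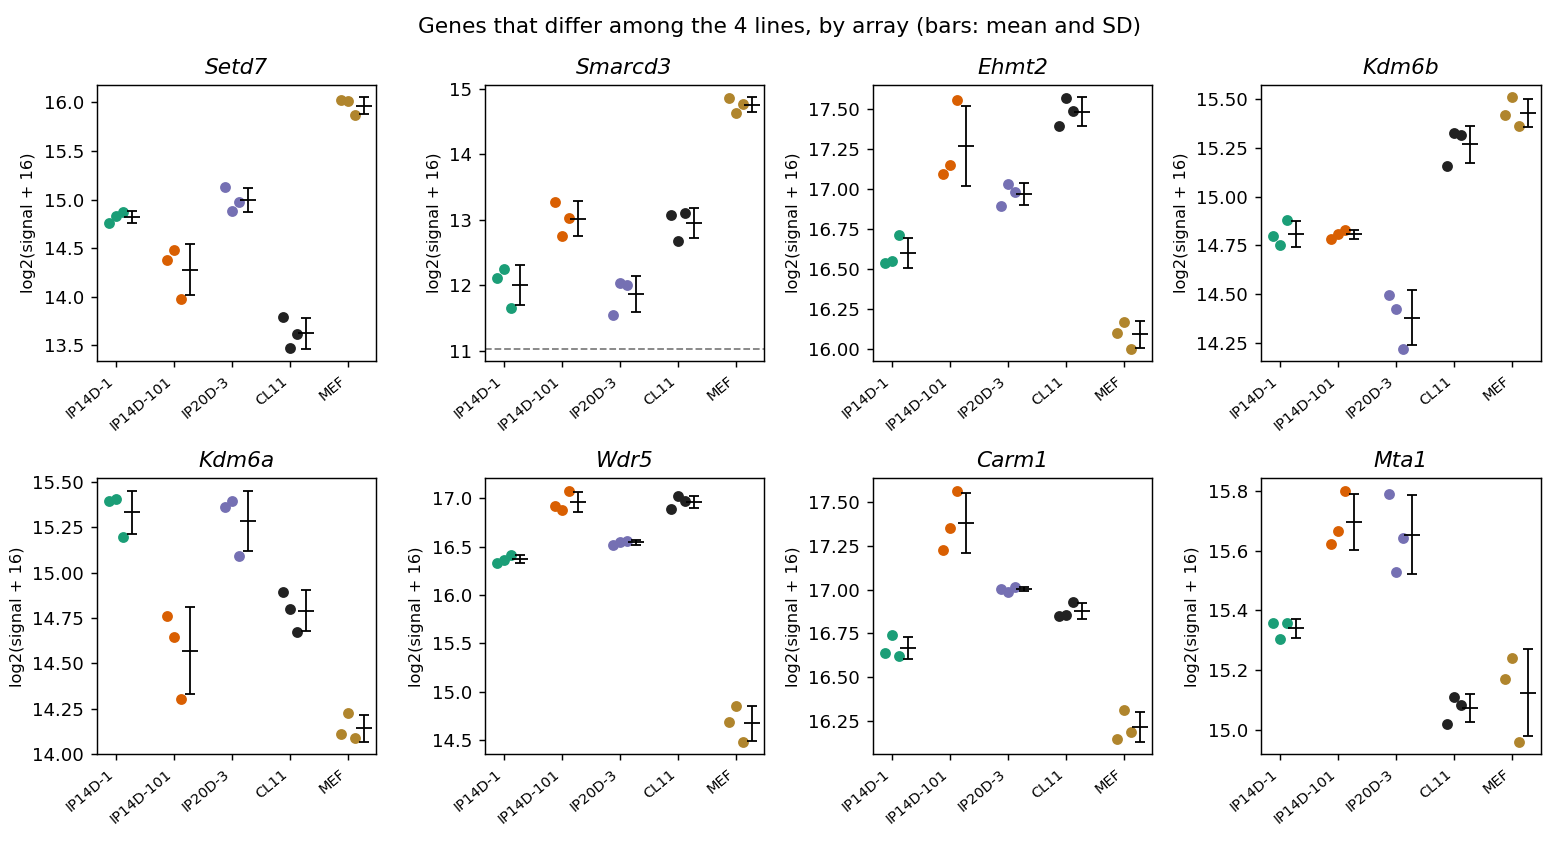
Panels show log2(signal + 16) per array for 8 genes that differed among the lines, with a bar for each group mean and SD (n = 3) and the groups in the order IP14D-1, IP14D-101, IP20D-3, CL11 and MEF. Smarcd3 is lower in IP14D-1 and IP20D-3 than in IP14D-101 and CL11, and Setd7 is lowest in CL11.

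Other chromatin genes outside the list were counted in 10 lists of 140 genes, 133 of them measured, chosen by complex or activity. Of the 133, 81 were higher and 18 lower than MEF in IP14D-1, 82 and 17 in IP14D-101, 86 and 18 in IP20D-3, and 84 and 18 in CL11, with median changes of 0.64, 0.60, 0.70 and 0.59. Over all genes 29.9%, 30.4%, 30.4% and 30.3% were higher and 22.9%, 24.7%, 23.7% and 23.8% lower in the same order of lines, with medians of 0.13, 0.05, 0.10 and 0.07, and the counts of each list below stand against these shares, with no test of a list against all genes. Partners and readers of lysine 9 methylation on histone H3 were higher in 10, 9, 10 and 10 of 11 genes, and lower in 0. Uhrf1, which reads this mark and guides DNA methylation at replication, averaged 16.89 in IP14D-1, 17.20 in IP14D-101, 17.33 in IP20D-3 and 17.34 in CL11, against 14.10 in MEF. The heterochromatin proteins Cbx5 and Cbx1 were higher by 1.63 to 2.05 and by 1.43 to 2.00.

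Genes of the complexes that methylate lysine 4 were higher in 11, 11, 10 and 11 of 14 and lower in 2, 1, 2 and 2. The core subunits Dpy30 (2.31 to 2.95), Ash2l (2.47 to 2.60) and Rbbp5 (1.71 to 2.43) rose together with Wdr5, their partner. Remaining TIP60-p400 and INO80 genes were higher in 12, 10, 11 and 10 of 13 and lower in 0, led by the ATPases Ruvbl2 (2.09 to 2.63) and Ruvbl1 (1.74 to 2.25). ISWI and other CHD genes were higher in 10, 10, 11 and 11 of 13 and lower in 0, with Hells, a remodeler needed for DNA methylation of repeats, at 3.02 to 3.46 above MEF. Acetyltransferases were higher in 8, 8, 9 and 9 of 10 and lower in 0, 1, 0 and 1, and Hat1, which acetylates new histones, was 3.14 to 3.34 higher.

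Of the deacetylases outside NuRD, 2, 2, 3 and 2 of 13 were higher, a smaller share than the 29.9% to 30.4% of all genes, and 3, 5, 3 and 3 were lower, against 22.9% to 24.7% of all genes. Hdac7, a class II deacetylase, averaged 12.34, 12.29, 12.17 and 12.37 in the 4 lines, against 15.38 in MEF, and Sirt1 averaged 16.93, 16.17, 16.77 and 16.30, against 13.48 in MEF. In the rest of NuRD, Sin3 and CoREST, 7, 7, 7 and 6 of 12 were higher and 4, 3, 3 and 3 lower. Chd3, the paralogue of Chd4 that can serve as the NuRD ATPase, changed by -3.11, -3.32, -2.44 and -3.29 (SE 0.18), and the Sin3 subunit Sap30 and the CoREST subunit Rcor2 were 2.60 to 3.22 and 2.65 to 2.84 higher.

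Further BAF and PBAF subunits were higher in 8, 9, 11 and 8 of 20 and lower in 3, 3, 3 and 4, where 29.9% to 30.4% of all genes were higher and 22.9% to 24.7% lower, with Actl6a at 1.41 to 1.60, Dpf1 at 1.04 to 1.79 and Arid2, of PBAF, at 0.75 to 1.31 above MEF. Other demethylases were higher in 4, 5, 4 and 6 of 12 and lower in 2, 2, 3 and 2, with median changes of -0.0052, 0.36, 0.01 and 0.30 that lie on both sides of those of all genes. Among them were Kdm3a, 2.13 to 2.54 higher, and Phf2, at -1.76 to -1.46. Other methyltransferases were higher in 9, 11, 10 and 11 of 15 and lower in 4, 2, 4 and 3, with Kmt5c 1.88 to 2.24 higher and Nsd3 at -2.38 to -1.21.

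**Figure D5:**
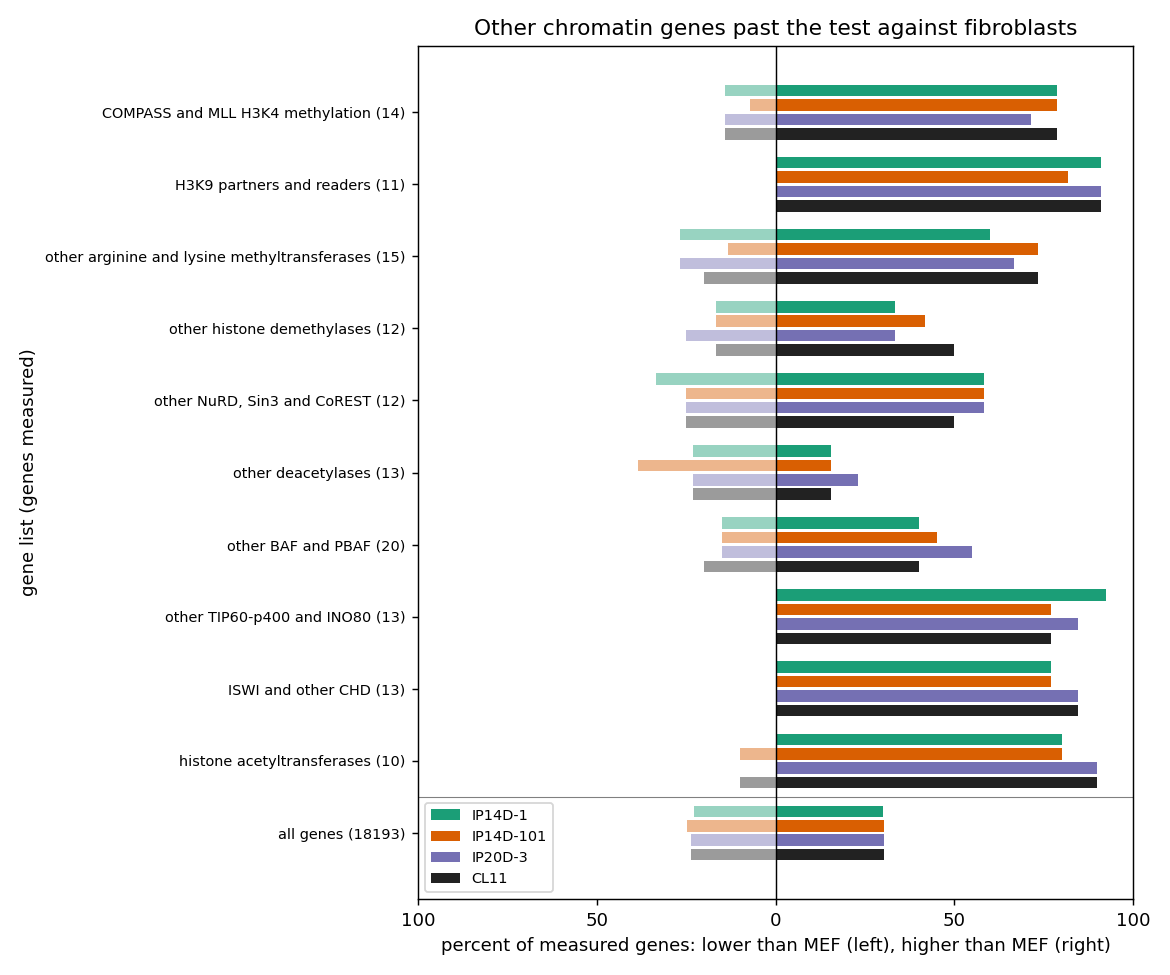
Bars give the percent of measured genes of each list that were higher than MEF (right) or lower (left) by limma with an adjusted p under 0.05, with 1 bar per line, and the lowest row gives the same percent for all 18193 genes. TIP60-p400, ISWI and partners of lysine 9 methylation extend to the right with no gene to the left in any line, and the deacetylases extend to both sides.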

How the data were processed

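RNA of 5 groups with 3 samples each had been hybridised to 15 Affymetrix arrays. The deposited intensity values were MAS5 signals. Per the submitters' processing notes, the software was the Affymetrix Expression Console, with no version stated. The genome build behind the probe annotation is not given in the sources used here. Of 45037 probe sets other than controls, 34945 named a single gene, 932 named several and were left out, and 9160 named none. Each array was scaled to the mean of the 2% trimmed means, which differed by a ratio of 1.83, beyond the tolerance of 5%, and log2(signal + 16) was taken. The brightest probe set represented each of 18193 genes. limma 3.58.1 (R 4.3.3) fitted group means to all 15 arrays with a variance trend, and an adjusted p under 0.05 (Benjamini-Hochberg over all genes within a comparison) counted as changed. SE values come from this model. A script tested on simulated data ran the fit. Where a group mean lay below background, a fold ("at least") sets the brighter mean against the dimmer mean after any dimmer array under background was set to that level. All measured members could be named, and of other lists up to 3 genes with the largest mean change among those called alike in all lines. The members, lists and tests were chosen with earlier results of these data known. Alternatives were other scalings, pseudocounts, probe set choices, a dim filter, no variance trend, fits of 2 groups, a replicate block and leaving out each array. The mean of probe sets took in all probe sets of a gene, also those below background. Promoter windows came from RefSeq (GRCm38.p6). Python 3.11.15, pandas 2.3.3 and scipy 1.17.1 were used. Replicate numbers were not taken as pairs, since arrays of 1 number did not deviate together.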

Additional observations from a re-analysis of the deposited data

Results flagged for a closer look

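Kdm5a lay on opposite sides of MEF in 2 iPS lines. It was 0.26 higher on the log2 scale in IP14D-1 (limma adjusted p = 0.070) and lower in IP14D-101 (-0.41, adjusted p = 0.0046), and the difference between both lines was 0.67 (SE 0.11, adjusted p = 0.00023).

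Mta1 passed the test against MEF in the 3 iPS lines and not in the ES line CL11. Its change was 0.57 in IP14D-101, 0.53 in IP20D-3 and 0.22 in IP14D-1, against -0.05 in CL11, and the limma test of the difference from CL11 gave 0.63 (adjusted p = 0.00011), 0.58 (9.1e-05) and 0.27 (0.033) in that order. Against MEF, Mta1 in IP20D-3 turned to -0.11 without scaling and to -0.23 with the mean of probe sets, with which its difference from CL11 was -0.11. The other probe set in that mean was below background in every group. In IP14D-1 the call against MEF was lost under most alternatives. All 9 iPS arrays lay above the 3 CL11 arrays on the brightest probe set of Mta1.

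Groups of 3 arrays were not examined for single arrays far from the others.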

How the results depend on the processing

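Of 124 member changes called against MEF, 84 kept direction and call under every alternative run, and of 75 called between lines 13 did. Counts of members called against MEF, of members that differ among the lines and of the other chromatin genes stayed within 1.5 times. IP14D-1 minus CL11 gave 15 members, and 9 with the mean of probe sets. IP14D-101 minus CL11 gave 8, and 5 without scaling or with median scaling. IP14D-1 minus IP14D-101 gave 17, and 11 with the mean of probe sets, and 11 to 16 leaving out 1 array, lowest without IP14D-1 replicate 2. IP14D-1 minus IP20D-3 gave 6, 23 without scaling, 2 with median scaling, 1 with no variance trend, and 2 to 5 leaving out 1 array (2 without IP14D-1 replicate 1 or 2, and 3 without IP20D-3 replicate 3). IP14D-101 minus IP20D-3 gave 17, 10 without scaling, with no variance trend or with only those groups fitted, and 11 to 16 leaving out 1 array, lowest without IP14D-101 replicate 3 or IP20D-3 replicate 1. Fewer arrays or groups were fitted in the last kind of setting, and for the others the cause was not tested. The ratio of Mta1 to Mta2 was -0.21 with the mean of probe sets. That of Ehmt1 to Ehmt2 was -0.50 to -0.37 leaving out 1 array, and passed the test without CL11 replicate 2 (-0.37), IP14D-1 replicate 1 (-0.47) or IP14D-1 replicate 3 (-0.50).

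Reversed here means a change of sign, whether or not the new value passed the test. Without scaling these members reversed. Against MEF they were Kdm6a (-0.14) and Mta2 (-0.17) in IP14D-101, Ehmt1 (-0.066) and Mta1 (-0.11) in IP20D-3 and Dot1l (-0.0022) in CL11. None of these values against MEF passed the limma test (adjusted p = 0.27 to 0.99). In IP14D-1 minus CL11 they were Ep400 (0.024), Kdm2b (0.045), Kdm5b (0.021) and Setdb1 (0.070). In IP14D-1 minus IP14D-101 they were Arid1a (0.22), Kdm1a (0.24), Mta1 (0.12), Mta2 (0.10), Prmt5 (0.22), Setdb1 (0.23) and Smarca4 (0.055). In IP14D-1 minus IP20D-3 they were Carm1 (0.21), Ehmt2 (0.18), Mta1 (0.23), Smarca4 (0.32) and Smarcc1 (0.19). With the mean of probe sets the reversals were Mta1 (-0.23) and Setd7 (0.11) in IP20D-3 minus MEF, Ep400 (0.14) and Setdb1 (0.032) in IP14D-1 minus CL11, Mta1 in IP20D-3 minus CL11 (-0.11), in IP14D-1 minus IP14D-101 (0.13) and in IP14D-1 minus IP20D-3 (0.52), and Kdm5b (-0.038) and Kdm6a (0.010) in IP14D-101 minus IP20D-3. Those of Mta1 and Setd7 against MEF did not pass the limma test (adjusted p = 0.68 and 0.65). With median scaling Hdac2 reversed in IP14D-1 minus IP14D-101 (-0.15), and Hdac1 (0.0065) and Hdac2 (0.0021) in IP14D-101 minus IP20D-3.

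Over all genes, IP14D-101 minus MEF gave 5528 higher and 4489 lower, 6721 and 3264 with median scaling (median change 0.39) and 3300 and 6595 without scaling (-0.51). With the replicate number as a block, 195 of 199 member calls held and 4 were lost. Arrays of different groups with the same number deviated together with a median correlation of -0.0051 over 30 pairs, so the numbers do not pair the samples.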
